A study of Rattus norvegicus with 6 samples.

Results

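The snoRNAs and scaRNAs encoded outside the Prader-Willi syndrome (PWS) domain were described in INS-1 β-cell lines with and without that domain. Members were the rows of the gene table whose name starts with Snora, Snord, snoU or Scarna, other than Snord115, Snord116, Snord107 and Snord64 of the domain, whose normalized counts averaged 5 or more across the 6 lines. Here a normalized count is the number of reads counted at a gene, divided by a size factor of the library. Of 231 such rows in a table of 32900 rows, 147 were members, 30 had reads but a mean under 5, and 54 had no read in any line. The members comprised 92 box C/D snoRNAs, 47 H/ACA snoRNAs and 8 scaRNAs under 102 names. Just inside the limit were Snord90, Scarna3 and Scarna3b with means of 5.23, 6.15 and 6.92, and just outside it were Snord61, a SNORA74 row and Snora47 with 4.87, 4.56 and 4.41.

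All lines derive from the rat insulinoma line INS-1(832/13)::mCherry, a β-cell model whose cells carry a human INS-neoR transgene and a mouse Ins2-C-mCherry transgene, and were grown in 7.5 mM glucose. Control lines 5-9, 2 and 16 carry the CRISPR/Cas9 deletion of the PWS domain on the silent maternal allele, and PWS lines 3, 19-1 and 19-4 carry it on both alleles. Each line gave 1 library of rRNA-depleted total RNA. Lines 2, 16, 3 and 19 were isolated from line 5-9, and both 19-1 and 19-4 were subcloned from line 19, which leaves 2 independent PWS clones. Line 3 has a larger paternal deletion than the others. Between 26016478 reads in line 19-1 and 36084261 in line 2 were counted, with a read counted at every place where it aligned. The deletion showed in the snoRNAs of the domain: the summed normalized count of the 36 Snord116 rows was 1677 to 3043 in the control lines and 0 in the PWS lines. The 9 β-cell markers, Ins1, Iapp and Pdx1 among them, were expressed in every line, with a sum of 336070 to 661083. The 13 markers of other islet, exocrine, stromal, endothelial and immune cells summed to 166 to 218. Sst, Irx2, Prss1, Dcn, Cdh5 and Ptprc were at 0 in all lines. The largest of the others were Pdgfra, with 46.4 to 165 normalized counts per line, Gcg, with 0 to 100, and Cd68, with 27.6 to 34. Pdgfra was lowest and Gcg highest in line 19-4.

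snoRNAs are short nuclear RNAs that direct the chemical modification of other RNAs by base pairing. Box C/D snoRNAs guide 2′-O-methylation by fibrillarin and H/ACA snoRNAs guide pseudouridylation by dyskerin, mostly on ribosomal RNA, whereas scaRNAs guide both kinds of modification on spliceosomal snRNAs in Cajal bodies. A few, such as U3, U14 (SNORD14), U22 (SNORD22) and U17 (SNORA73), are needed for the cleavage of the ribosomal RNA precursor. In mammals most of them are cut out of introns of host genes, many of which encode ribosomal proteins or translation factors, and so depend on the transcription and splicing of the host. The snoRNAs of the PWS domain are made in the same way from a single long paternal transcript, and the comparison here asks whether the remaining snoRNA population differed once that transcript was gone.

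Host genes of snoRNAs are known for transcripts that start with a C followed by pyrimidines. The starts of 4 genes that contain members are printed here to show this feature in the neighbourhood of the members, from RefSeq on GRCr8, 5′ to 3′, with 10 bases before the annotated start and 15 from it, and with the first 5 bases of the transcript in capitals.
Rpl37, which contains Snord72, at chr2:55942935-55942959 on the plus strand: ggcgtactttCTCTTccggtctctt
Rabggtb, which contains Snord45c, at chr2:245510765-245510789 on the minus strand: gctcttcagtCTTTCggcggtcgga
Snx5, which contains Snord17, at chr3:152094494-152094518 on the minus strand: tgtgcgcgctCTTTCtcgaggcgtg
Rps12, which contains Snord100, at chr1:23500065-23500089 on the plus strand: gaagcccagcAGAGCgcttaaatac
The first 3 begin with C and 4 pyrimidines and the Rps12 start does not. Of the 28 containing genes with a promoter entry, 3 (10.7%) had this start, against 3.11% of all 27457 genes with an entry. The annotated starts may lie a few bases from the true ones, and the count is a description of those letters.

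The summed level of the 147 members was close in the control and PWS groups and uneven among the PWS lines. It came to 87367 in control line 5-9, 95169.7 in line 2 and 96576 in line 16, and to 105419 in PWS line 3, 76014 in line 19-1 and 107094 in line 19-4. The means were 93038 ± 4961 and 96176 ± 17480.4 (SD, n = 3 each), the group means of the log2 sums differed by 0.03 (-0.054 to 0.193 with a line left out), and the groups overlapped, with 1 PWS line below and the other two above all control lines. That order depended on the counting, since reads shared by copies are counted at each copy here. From unique reads alone, those left when reads with several places or features were dropped, the sum was 56850, 70112 and 74774 in the control lines and 70985, 57648 and 69948 in the PWS lines, a difference of the mean log2 sums of -0.019 with every PWS line inside the control range. With RSEM, which divides shared reads among copies, it was 63243 to 76178 in the control lines and 78645, 56423 and 73414 in the PWS lines, a difference of the mean log2 sums of -0.053. Together the members took 0.244% to 0.348% of the normalized counts of a line. H/ACA snoRNAs held 64.9% of the sum, box C/D snoRNAs 21.5% and scaRNAs 13.7%, and the 8 most abundant rows held 64.0%.

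With all alignments counted, the H/ACA sum showed the widest spread, from 46357 in line 19-1 to 71899 in line 19-4. It was 60287 ± 2920.0 in the control lines and 62427 ± 13991 in the PWS lines (SD, n = 3 each). From unique reads the H/ACA sum was instead lowest in line 5-9, at 29988, and highest in line 16, at 43468, with 31563 in line 19-1 and 38542 in line 19-4. With RSEM it was lowest in line 19-1, at 36357, and highest in line 3, at 52852, and line 19-4, at 50351, lay below lines 2 and 16. The box C/D sum was 17892, 18279 and 22979 in the control lines and 23086, 18007 and 21608 in the PWS lines, where lines 16, 3 and 19-4 were high and lines 5-9, 2 and 19-1 low, across the groups. The scaRNA sum differed little, with 13034 ± 1142 and 12849 ± 1047 (SD, n = 3 each). The order of the classes changed with RSEM, where the within-group SD of the log2 sums was 0.321 for box C/D and 0.235 for H/ACA snoRNAs. With 3 lines against 3 an exact permutation test cannot give a two-sided p-value under 0.1, so no p-value is given for the sums.

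**Figure D1:**
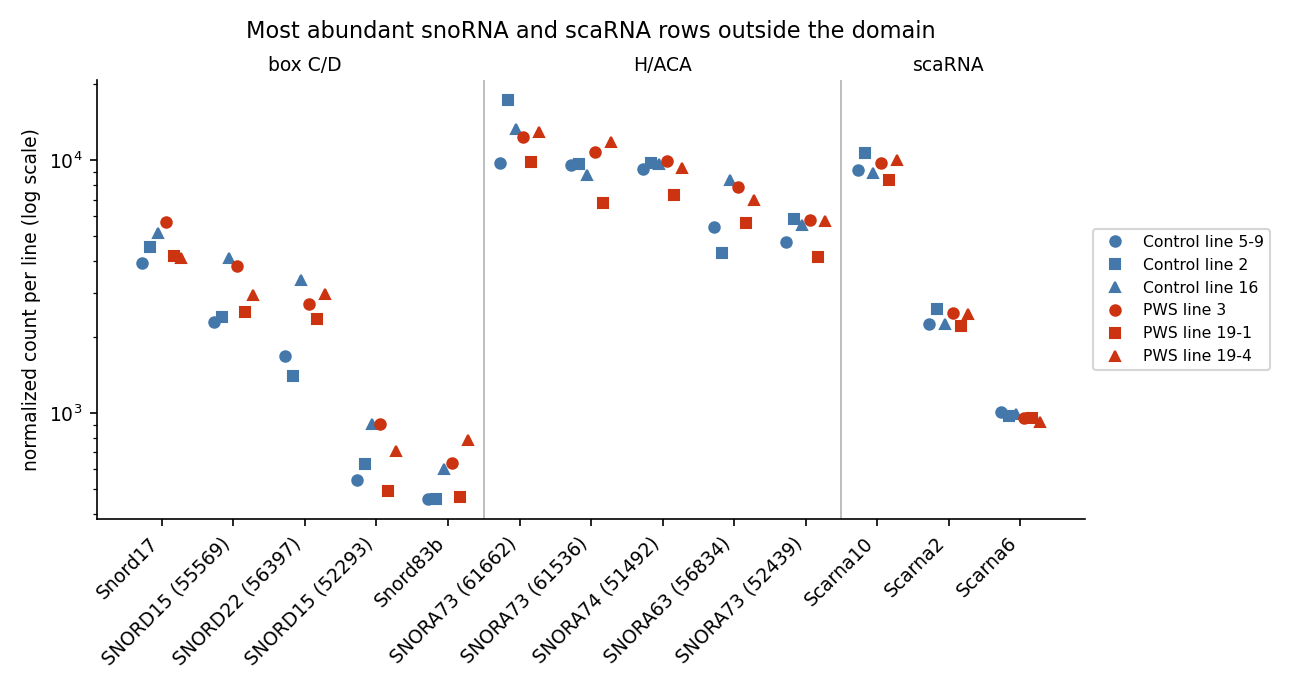
Normalized counts (log scale) of the 5 most abundant box C/D, 5 H/ACA and 3 scaRNA rows, 1 point per line, blue for control and red for PWS lines, with the last digits of the gene ID where a name has several rows. Blue and red points interleave for every row but Scarna6, where the 3 PWS lines lie just below the control lines.

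No member passed the test of PWS against control lines. At an adjusted p-value under 0.05 (limma on log2 of the normalized count + 1, Benjamini-Hochberg over the 15579 rows tested), 0 of 147 members were called, against 0.257% of all rows tested. edgeR and DESeq2 on the recovered reads also called 0, against 0.205% and 1.46% of all rows. At an unadjusted p-value under 0.05, 2 members (1.36%) were past the limit, against 11.3% of all rows. By contrast, 24 of the 25 tested snoRNA rows of the deleted domain were called lower in the PWS lines, where they had no read. These 25 of 96 rows passed the filter on the mean only through the control lines, so the filter favoured a fall.

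The log2 differences (PWS minus control) of the members were small. Their median was 0.07, with 94 above and 53 below 0, where 49.3% of all rows tested lay above 0. By class the median was 0.03 for box C/D snoRNAs (51 of 92 above 0), 0.16 for H/ACA snoRNAs (37 of 47) and 0.12 for scaRNAs (6 of 8). These medians rested on single lines: without line 19-4 they were -0.020 for box C/D (41 above 0) and 0.023 for H/ACA snoRNAs (26 above 0), and without line 19-1 they were 0.11 (64) and 0.30 (43). For 141 members (95.9%) the difference lay within 0.5 of 0 on the log2 scale. The 95% confidence interval lay within 1 of 0, that is within a doubling or halving, for 128 members (87.1%), and the median of its half-width was 0.466. Members varied more between lines of a group than the other rows did: the median residual SD was 0.256 for members and 0.152 for all rows. It was 0.318 for the 95 other short noncoding RNAs tested. The 3 PWS lines lay above all control lines for 3 members and below them for 4, against 8.43% and 9.01% of all rows. Together these are 4.76% of the members, and 17.4% of all rows did not overlap.

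**Figure D2:**
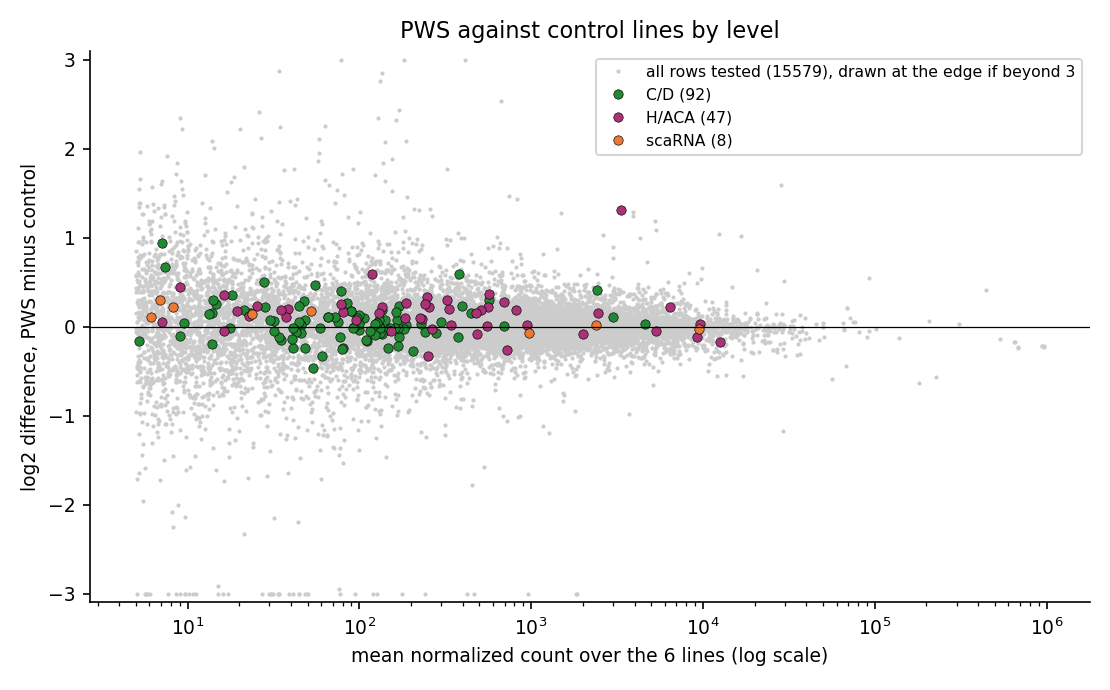
Log2 difference between PWS and control lines against the mean normalized count over the 6 lines (log scale), with all 15579 rows tested in grey (drawn at the edge where beyond 3) and the members coloured by class. All but 6 of the 147 members lie within 0.5 of 0, and the H/ACA point at 1.31 is a SNORA73 row with hardly any unique reads.

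The 7 members whose groups did not overlap were not among the abundant ones, with a single exception, and none passed the test. Snord100, a box C/D snoRNA inside the ribosomal protein gene Rps12, stood at 41.8, 45.9 and 51.4 in the control lines (5-9, 2 and 16, the order kept below) and at 58.2, 61 and 74.6 in the PWS lines (3, 19-1 and 19-4). Every PWS line was above every control line, and the difference was 0.47 ± 0.19 on the log2 scale (SE, unadjusted p = 0.0383, adjusted p = 0.421 in limma). It was larger under the other countings, 0.72 from unique reads (adjusted p = 0.345 in limma) and 1.07 with RSEM (adjusted p = 0.413 in limma). Snord66, inside the translation factor gene Eif4g1, had 63.6, 63.3 and 73.9 in the control lines and 83.7, 78.9 and 105 in the PWS lines, a difference of 0.40 ± 0.18 (SE, adjusted p = 0.444 in limma), and of 0.76 with RSEM. The third with higher PWS lines, the SNORD62 row ENSRNOG00000060627, had only 4.75 to 12 normalized counts per line.

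Lower in all PWS lines were Scarna6, SNORD30, a SNORD18 row and a SNORD34 row. Scarna6 was the most even of the members, with 1008, 977 and 995 in the control lines and 956, 957 and 924 in the PWS lines. Its SDs of 15.9 and 18.7 were under 2% of the means, and the difference of -0.07 ± 0.07 (SE, adjusted p = 0.734 in limma) is too small to be told from the spread that limma assigns to a row of this level. The SNORD34 row ENSRNOG00000060311 had the lowest difference of all members, -0.46 ± 0.23 (SE, adjusted p = 0.497 in limma), with 68.4, 53.2 and 64.7 in the control lines and 51, 33.5 and 51.8 in the PWS lines. It had no read left once reads with several places or features were dropped. The SNORD18 row ENSRNOG00000052983 differed by -0.33 and SNORD30 by -0.24.

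The other member past the unadjusted limit was the SNORA70 row ENSRNOG00000051714, with 86.4, 86.3 and 104 in the control lines and 148, 95.7 and 186 in the PWS lines. Line 19-1 overlapped with the control lines, and the difference was 0.59 ± 0.24 (SE, unadjusted p = 0.0402, adjusted p = 0.423 in limma). It was 1 of 9 SNORA70 members, whose differences reached from -0.05 to 0.59. Among rows with few reads, the SNORD33 row ENSRNOG00000055228 differed by 0.94 ± 0.43 (SE, adjusted p = 0.463 in limma), from 3.08 to 5.7 normalized counts in the control lines and 5.46 to 13.3 in the PWS lines. Its control mean of 4.46 lies under the limit of 5 and its PWS mean of 9.83 above it, so it became a member only through the PWS lines and the rule favoured a positive difference. The other 2 SNORD33 members, with over 100 normalized counts in every line, differed by 0.16 and 0.07. No read of those 2 rows was unique, while all reads of ENSRNOG00000055228 were.

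Among snoRNAs that act in the cleavage of the ribosomal RNA precursor, SNORD22 had control lines that lay far apart. The row ENSRNOG00000056397 had 1678, 1397 and 3368 in the control lines and 2697, 2357 and 2948 in the PWS lines. Control line 16 was the highest of all lines and the other control lines the lowest, so that the difference of 0.42 ± 0.28 (SE, adjusted p = 0.624 in limma) came with a control SD of 1066 (n = 3). Without control line 16 it was 0.79, with an adjusted p-value of 0.0873 in limma, the lowest of any member under any of the alternatives, and without control line 2 it was 0.16. The second SNORD22 row, ENSRNOG00000057313, was likewise highest in control line 16 and lowest in control line 2, with 264, 182 and 522 in the control lines and 408, 474 and 445 in the PWS lines, and 0.396% of its reads were unique.

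SNORD14 had 4 member rows, with differences between 0.08 and 0.19. The most abundant, ENSRNOG00000061656, had 120, 105 and 155 in the control lines and 180, 128 and 125 in the PWS lines, a difference of 0.19 ± 0.20 (SE, adjusted p = 0.771 in limma). U3 and U8, box C/D snoRNAs of the same processing pathway, stand in the table under names that the rule does not take. The summed U3 rows had 77921, 88925 and 78514 in the control lines and 91089.6, 77101 and 124027 in the PWS lines, where line 19-4 was the highest and line 19-1 the lowest. The row ENSRNOG00000061360 held most of that sum, and of the 9 U3 and U8 rows tested only 1 was lowest in line 19-1 and 6 in line 2, while 6 were highest in line 19-4. All 9 U3 and U8 rows tested had differences above 0, 4 of them were past an unadjusted p-value of 0.05, and none passed the test (lowest adjusted p = 0.277 in limma). Over all rows tested, 49.3% lay above 0 and 11.3% were past 0.05, and copies of a name can share reads.

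The most abundant box C/D members varied between lines, and their groups overlapped. Snord17 had 3927, 4546 and 5166 in the control lines and 5707, 4169.6 and 4122 in the PWS lines, a difference of 0.03 ± 0.14 (SE, adjusted p = 0.96 in limma). The SNORD15 row ENSRNOG00000055569 had 2293, 2398 and 4097 in the control lines and 3820.2, 2517 and 2930.3 in the PWS lines, with lines 16 and 3 high, and differed by 0.11 ± 0.23 (SE, adjusted p = 0.902 in limma). The second SNORD15 row had 543 to 908 in the control lines and 494 to 909 in the PWS lines, again with lines 16 and 3 the highest. Snord83b, inside the ribosomal protein gene Rpl3, had 458, 458 and 599.8 in the control lines and 637, 468 and 783 in the PWS lines, a difference of 0.30 ± 0.19 (SE, adjusted p = 0.597 in limma), which was 0.49 without line 19-1 and 0.12 without line 19-4.

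Among H/ACA snoRNAs, the SNORA63 row ENSRNOG00000056834 had 5471, 4299 and 8350.2 in the control lines and 7863, 5666 and 6953 in the PWS lines, with line 16 the highest and line 2 the lowest. Its difference was 0.22 ± 0.22 (SE, adjusted p = 0.758 in limma), and it ran from 0.0015 without line 2 to 0.48 without line 16. The SNORA74 row ENSRNOG00000051492 had 9229, 9758 and 9677 in the control lines, which lay close together, and 9980.3, 7301 and 9342 in the PWS lines, with line 19-1 below all others. Its difference was -0.12 ± 0.11 (SE, adjusted p = 0.737 in limma). Only 6.89% of the reads of this row were unique, and from unique reads the difference was 0.095.

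The 3 most abundant scaRNAs varied little between lines. Scarna10 (U85), which guides modification of the U5 snRNA, had 9129.9, 10698 and 8932 in the control lines and 9759.8, 8398 and 10073 in the PWS lines, a difference of -0.03 ± 0.10 (SE, adjusted p = 0.948 in limma). Scarna2, a guide for the U2 snRNA, had 2259.7, 2588 and 2245 against 2487, 2217 and 2462, a difference of 0.02 ± 0.08 (SE, adjusted p = 0.962 in limma). The other 5 scaRNA members besides Scarna6 had at most 75.5 normalized counts in every line and differences from 0.10 to 0.30. A RefSeq length could be given for 50 members, all under names with a single row. SNORA73 and the other names with several rows are thus left out. Per 100 bases, the highest mean levels among these 50 were 2896 for Scarna10, 1927 for Snord17, 603 for Snord83b, 571 for Scarna2 and 514 for Snora23.

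The lowest and highest values of the members often fell in the subclones of PWS line 19. Line 19-1 was the lowest of the 6 lines for 63 of 147 members (42.9%), where it was the lowest for 19.2% of all rows tested, and line 19-4 was the highest for 57 (38.8%), against 18.9% of all rows. The median difference of the members from the control mean, on the log2 scale, was 0.10 in line 3, -0.17 in line 19-1 and 0.20 in line 19-4, a measure that centres the control lines on 0 by construction. Over all rows tested these medians were within 0.01 of 0 in every line.

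The pattern was widest in the H/ACA snoRNAs and only partly present in the scaRNAs. Their medians were 0.27 in line 3, -0.22 in line 19-1 and 0.34 in line 19-4, and 23 of 47 had their lowest value in line 19-1 and 23 their highest in line 19-4. For box C/D snoRNAs the medians were 0.07, -0.12 and 0.14 in the same order. For the 8 scaRNAs they were 0.11, -0.19 and 0.07, beside 0.10 in control line 16: 4 were lowest in line 19-1, but only 2 were highest in line 19-4 and 3 in line 3. Among the 61 members with over 90% unique reads, whose counts are little affected by copies, line 19-1 was the lowest for 30 and line 19-4 the highest for 27. From unique reads, line 19-1 was the lowest for 53 of 116 members (45.7%) and line 19-4 the highest for 48 (41.4%), against 19.1% and 19.1% of all rows with a mean of at least 5 there. With RSEM the figures were 32 of 74 (43.2%) and 24 (32.4%), against 19.1% and 18.3%, but of the 33 box C/D members there only 6 were lowest in line 19-1 and 17 in line 2. Over the 95 other short noncoding RNAs tested, among them 7SK, Y RNA, the RNA of the signal recognition particle and U3, the medians were 0.12 in line 19-1 and -0.06 in line 19-4. The 9 U3 and U8 rows among them stood apart in line 19-4, with medians of 0.12 and 0.33. Line 19-1 also had the fewest counted reads. Line 19-4 had the lowest value of every listed β-cell marker but Mafa. Ins1 was at 133488 there, against 175597 to 282807 in the other lines, and Iapp at 97752, against 150687 to 246567. Mafa was at 343, against 173 to 348 in the other lines. Gcg was the highest in line 19-4, at 100 against 0 to 19.0. The part of depth, of these markers, of the subclone and of the single library in this pattern was not tested.

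**Figure D3:**
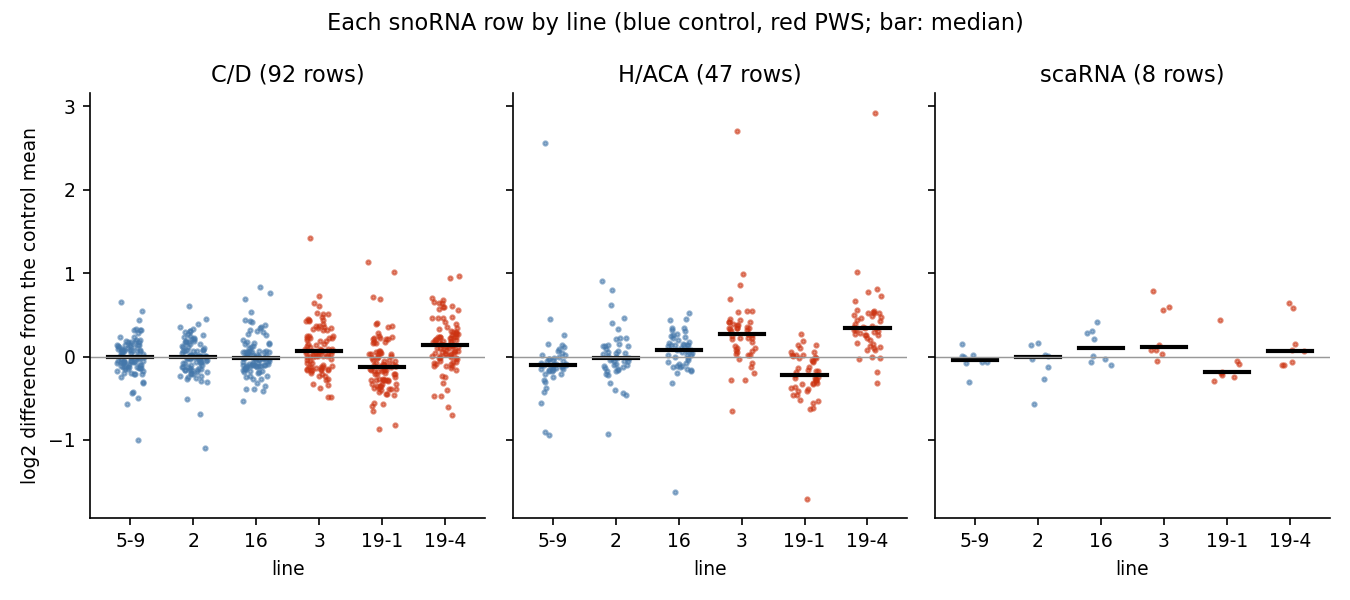
Log2 difference of each member from its control mean, by line and class, with control lines in blue, PWS lines in red and a bar at the median. The H/ACA medians are 0.27, -0.22 and 0.34 in lines 3, 19-1 and 19-4, so the PWS lines lie on both sides of the control lines.

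The median difference of the members moved most with the libraries of lines 19-1 and 19-4, and its sign turned without line 19-4. Without line 19-1 the median difference was 0.17, 114 of 147 members lay above 0, and 18 were past an unadjusted p-value of 0.05 (12.2%), against 7.93% of all rows in the same fit. Of these 18, 15 were H/ACA snoRNAs. Without line 19-4 the median was -0.01, with 70 members above 0. No member was called in either fit (lowest adjusted p-values 0.542 and 0.577 in limma).

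Many snoRNAs occur in near-identical copies, so that the counts of a row can hold reads of another. Of the members, 68 belonged to 23 names with several rows in the table, SNORA70 with 42 rows and SNORA73 with 17 among them. Unique reads made up under 10% of the count of 30 members and over 90% of that of 61 members (41.5%), against 75.4% of all rows tested. The median member had 82.8% unique reads and the median row tested 99.6%. The SNORD36 rows ENSRNOG00000053443 and ENSRNOG00000057883 had the same read count in every line.

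SNORA73 (U17), an H/ACA snoRNA needed to process the ribosomal RNA precursor, was the most abundant name, and 7 of its rows were members. Their sum was 31877, 37685 and 30879 in the control lines and 37893, 23611 and 40791 in the PWS lines, lowest in line 19-1 and highest in line 19-4, with some reads counted at more than 1 row. From unique reads it was 16356, 28362 and 25035 in the control lines and 19958, 18191 and 19926 in the PWS lines, lowest in line 5-9 and highest in line 2. With RSEM line 2 was again the highest, at 31126, and line 19-1 the lowest, at 18059. The highest member of all, ENSRNOG00000061662, had 9764, 17349.7 and 13284 in the control lines and 12392, 9882 and 12961 in the PWS lines, a difference of -0.17 ± 0.20 (SE, adjusted p = 0.794 in limma). The row ENSRNOG00000052439, with 99% unique reads, differed by -0.05 ± 0.14 (SE, adjusted p = 0.931 in limma).

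The SNORA73 row ENSRNOG00000054209 had the largest difference of all members, 1.31 ± 1.38 (SE, adjusted p = 0.766 in limma), and the values behind it did not follow the groups. It had 5575 normalized counts in line 5-9, 6186 in line 3 and 7179.8 in line 19-4, but 496 in line 2, 307 in line 16 and 291 in line 19-1. Both groups thus held lines of both kinds, and so did the subclones 19-1 and 19-4. Hardly a read of this row was unique: without reads of several places or features it was at 0 in 5 lines and at 0.912 in line 19-4.

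The row ENSRNOG00000061536 of the same name showed the counterpart. With all alignments it had 9571, 9676 and 8731 in the control lines and 10796, 6764 and 11849 in the PWS lines. Counting only unique reads, it had 3830, 8683 and 8052 in the control lines and 4440, 6110 and 4503 in the PWS lines, so that its unique share was 40% in line 5-9, 41.1% in line 3 and 37.9% in line 19-4, and between 89.9% and 92.2% in the other three. In reads, its shared part was 6047 in line 5-9, 6226 in line 3 and 8097 in line 19-4, close to the 5872, 6059 and 7897 reads of ENSRNOG00000054209 in those lines. In lines 2, 16 and 19-1 the shared part was 1067, 660 and 534 reads, beside 540, 299 and 243 reads of the other row. The same reads thus appear to be counted at both rows, and what sets the split between lines was not tested.

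**Figure D4:**
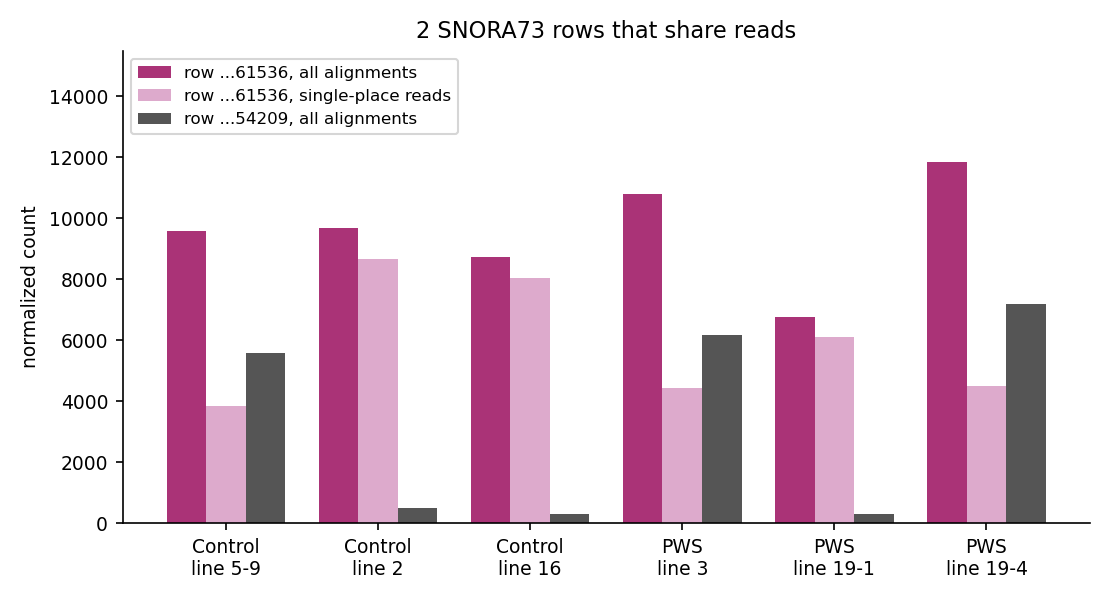
Normalized counts per line of the SNORA73 rows ENSRNOG00000061536 (all alignments and unique reads) and ENSRNOG00000054209 (all alignments). In lines 5-9, 3 and 19-4 the unique bar is low and the bar of the second row high, and in lines 2, 16 and 19-1 the reverse holds.

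Another SNORA73 row, ENSRNOG00000052548, had a unique share of 20.5%, 14.9% and 24% in lines 5-9, 3 and 19-4 and of 60%, 60.7% and 44.7% in lines 2, 16 and 19-1. Of the 95 members with at least 50 reads in every line, 4 had a unique share that ranged over more than 20 percentage points between lines: these SNORA73 rows (ENSRNOG00000061536 and ENSRNOG00000052548), SNORD39 (53.1% in line 2, 90.1% or more elsewhere) and SNORA72. Over all H/ACA members, unique reads made up 52.6%, 55.5% and 53.4% in lines 5-9, 3 and 19-4, and 65.4%, 70.9% and 68.3% in lines 2, 16 and 19-1. Over box C/D members they made up 80.8% to 84.2%. The H/ACA shares include the rows ENSRNOG00000061536 and ENSRNOG00000054209, which split the lines in the same way. They therefore do not describe the other H/ACA members. When the row ENSRNOG00000054209 was left out of the sums, the H/ACA sum was 58161 ± 5866 in the control lines and 57875 ± 10269 in the PWS lines (SD, n = 3 each), with line 19-1 at 46067 and line 19-4 at 64719.6, the lowest and the highest in this counting but not in the sums from unique reads given above.

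No gene that contains a member passed the test. By position in RefSeq, 38 members lay within 34 genes of the table, of which 10 encode ribosomal proteins, and for this match the strand was not known. Of the 34 genes 0 were called by limma, against 0.257% of all rows tested. An unadjusted p-value under 0.05 was reached by 2 of them, against 11.3% of all rows. The median difference of the 34 genes was -0.02. The snoRNA and its containing gene had the same sign of difference in 12 of 38 pairs. Across the 38 pairs, Pearson's r of the differences was 0.04 and Spearman's rho -0.16, over points that share their 6 libraries, and in which genes with several snoRNAs appear more than once.

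Single pairs show how far the levels are apart. Rps12 had 14995, 15094 and 14134 in the control lines and 16338, 14042 and 15534 in the PWS lines, a difference of 0.05 beside 0.47 for Snord100. Eif4g1 differed by -0.01, beside 0.40 for Snord66. Ncapd2, a condensin subunit gene that contains Scarna10, had 4627, 4789.7 and 4406 in the control lines and 4235, 3968 and 3520.3 in the PWS lines. All PWS lines were lower, as for 9.01% of all rows tested. The difference of Ncapd2 was -0.24 ± 0.08 (SE, unadjusted p = 0.0181, adjusted p = 0.346 in limma), while Scarna10 differed by -0.03. Chd8, which contains Snord8, differed by 0.22 ± 0.08 (SE, unadjusted p = 0.022, adjusted p = 0.365 in limma), and Snord8 by 0.15.

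In 3 genes with several members, the differences of the snoRNAs did not all have the sign of the gene's. Nop56, itself a core protein of box C/D particles, contains Snord110 and Snord57, which differed by -0.07 and 0.24 beside -0.03 for the gene. Gnl3 (nucleostemin) contains Snord19 and Snord69, with -0.15 and -0.04 beside 0.11. The region annotated as the cation channel gene Trpv2 contains Snord49a, Snord65 and Snord49b, with means of 230, 165 and 145 normalized counts and differences of 0.03, 0.08 and -0.04. Trpv2 had 54.1, 51.4 and 47.2 in the control lines and 50, 15.5 and 29.1 in the PWS lines, a difference of -0.82 ± 0.38 (SE, adjusted p = 0.466 in limma), and since the strand was not known, it may not be the transcript from which these 3 snoRNAs are cut. Of 20 noncoding snoRNA host genes looked for, 19 were not found by name in the table and the other had too few reads to be tested.

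**Figure D5:**
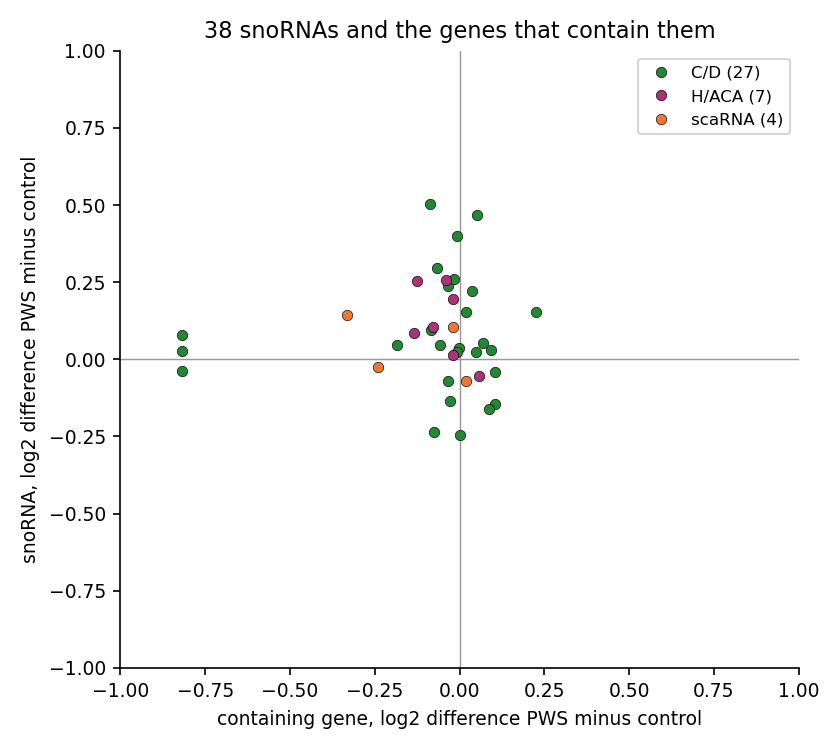
Log2 difference (PWS minus control) of 38 snoRNAs against that of the gene that contains each, coloured by class. Most genes lie near 0 whatever the snoRNA does, and the 3 points at -0.82 share Trpv2.

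The genes for the proteins that bind, assemble and use these RNAs gave no call. All 4 core proteins of box C/D particles were tested, and none was called or past an unadjusted p-value of 0.05, with a median difference of -0.0018. Fbl, the methyltransferase fibrillarin, had 2414, 1882 and 2280.1 in the control lines and 2267, 2051 and 2443 in the PWS lines, a difference of 0.04 ± 0.11 (SE, adjusted p = 0.917 in limma). All 4 core proteins of H/ACA particles were likewise not called, with a median of -0.01. Dkc1, the pseudouridine synthase dyskerin, differed by -0.03, Nhp2 by -0.08 and Gar1 by 0.16 ± 0.11 (SE, adjusted p = 0.621 in limma).

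Of 17 genes for snoRNP assembly and maturation, 10 lay above 0 and 7 below, none was called or past an unadjusted p-value of 0.05, and the median was 0.01. The highest were the H/ACA assembly factors Shq1, with 0.23 ± 0.13 (SE, adjusted p = 0.544 in limma), and Naf1, with 0.21 ± 0.14 (SE, adjusted p = 0.612 in limma). Naf1 had 586, 565 and 563 in the control lines and 548, 643 and 816 in the PWS lines, highest in line 19-4, and Shq1 had 422 to 484 in the control lines and 460.4 to 627 in the PWS lines, also highest in line 19-4. The lowest was Znhit3, a box C/D assembly factor, with -0.10. Of 5 genes listed for Cajal bodies none was called, from -0.14 for Wrap53, which brings scaRNAs to Cajal bodies, to 0.14 for Tcof1, which the list holds although its protein is known as a nucleolar factor of ribosomal RNA synthesis.

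Of 19 genes for rRNA synthesis and processing, 15 lay above 0 and 4 below, with a median of 0.06 that ran from -0.0047 to 0.107 with a line left out, and none was called by limma, edgeR or DESeq2 or past an unadjusted p-value of 0.05. The range ran from -0.05 for Polr1c, an RNA polymerase I subunit, to 0.13 for Imp3, a protein of the U3 particle. The abundant nucleolar protein Npm1 had 35506, 31221 and 32521 in the control lines and 34346, 31078 and 39343 in the PWS lines. These lists were chosen with earlier results of the data known.

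Among the other short noncoding RNAs, 95 rows were tested and 0 called, with 10 (10.5%) past an unadjusted p-value of 0.05 and a median of 0.03. RNase_MRP, which also cleaves the ribosomal RNA precursor, had 125175, 186946 and 126809.7 in the control lines and 145134, 118884 and 130990.2 in the PWS lines. Terc, the telomerase RNA with an H/ACA domain, had 182, 218 and 205 in the control lines and 193, 158 and 223 in the PWS lines, with line 19-1 the lowest and line 19-4 the highest. The summed Y RNA rows had 8636, 8621 and 15207 in the control lines and 16052, 10159 and 12286 in the PWS lines, with lines 16 and 3 the highest, as for both SNORD15 rows.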

How the data were processed

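RNA-seq of 3 control and 3 PWS INS-1 lines (1 library each) was analysed. The authors trimmed reads (cutadapt, FastQC 0.11.5), aligned them with STAR 2.7.0e to the Ensembl rat genome with custom features added, counted them with HTSeq 0.11.2 or RSEM 1.3.1, and deposited a signal for each gene and line: read counts scaled by size factors from DESeq2. Columns with the authors' own fold changes and p-values were not used. The main values come from the HTSeq counting that keeps reads with several places or features. Its values above 0 were whole multiples of 1 read in 100% of cases (tolerance 0.01 reads), so the reads were recovered. Without such reads, 17530149 to 23022637 were counted per line.

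The difference between PWS and control lines was tested with limma 3.58.1 under R 4.3.3 (a trended eBayes fit of log2(normalized count + 1), which understates the change of low rows) in the 15579 rows that averaged 5 or more, adjusted by Benjamini-Hochberg with a limit of 0.05. On recovered reads, edgeR 4.0.16 (quasi-likelihood) and DESeq2 1.42.0 were alternatives. All were tested on simulated data. The p-values measure the spread between clones and libraries together.

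The members, gene lists and tests were chosen with earlier results of these data known. Members were named if called, among the most abundant of their class (5, 5 and 3), among the 5 highest or lowest differences (overall and with a mean of at least 50), or known for precursor processing; list ends, containing genes and rows next to the limit were named too. Snord66, SNORD30, SNORA72, SNORD36, Snora23, Snord8 with Chd8, and the U3, U8, Terc, Y RNA, RNase_MRP, Fbl, Dkc1, Naf1 and Npm1 values were chosen after they were seen. Containing genes and lengths came from RefSeq (GRCr8), with 50 members matched by name. The design asked for the same strand, which the reference table does not give, so position alone was used.

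Other alternatives were pseudocounts of 0.5 and 5, a filter at any read or at a mean of 50, TMM scaling, an untrended eBayes fit, the counting without reads of several places or features (unique reads), RSEM, a limit of 0.1, omission of each line, a replicate block and the average of lines 19-1 and 19-4. The sums without a SNORA73 row, and the lines with the lowest and highest values in the other countings, were added after seeing the data.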

Additional observations from a re-analysis of the deposited data

How the results depend on the processing

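No member was called under any of the alternatives run, edgeR, DESeq2 and a limit of 0.1 for the fit of all lines included, and between 0 and 18 members were past an unadjusted p-value of 0.05. The replicate numbers of the labels share only a number: same-numbered lines had correlations of their deviations from the group means of 0.00345, 0.0467 and 0.00513, and with the replicate block 0 members were called, with a median difference of 0.07, and 36 rows in all against 40 without it. The half-width of the 95% interval was 0.466 in the median over the members. The members' median difference ran from -0.01 to 0.17 when each line was left out. With RSEM only 74 members, and from unique reads 116, had enough reads to be tested.

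With a line left out the difference of the mean log2 H/ACA sums ran from -0.091 to 0.226. Medians moved as follows, and the cause was not tested unless fewer rows are named. For box C/D snoRNAs the median was 0.31 with RSEM, over 33 of the 92 rows, against 0.03, and with a line left out it ran from -0.020 to 0.113, with 0.023 to 0.296 for H/ACA snoRNAs. For the scaRNAs it was -0.0052 at a mean of at least 50 and -0.0038 from unique reads, both with fewer rows, and -0.033 to 0.249 with a line left out. With a line left out it was -0.034 to 0.054 for snoRNP assembly and maturation, -0.067 to 0.082 for the box C/D core proteins, -0.088 to 0.061 for the H/ACA core proteins and -0.024 to 0.104 for the Cajal body list. For the other short noncoding RNAs it was -0.088 with RSEM, and 0 to 1 of them were called with a line left out, the 1 without line 3.

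Some named rows, none of them called, changed sign. From unique reads the SNORA73 row ENSRNOG00000061536 was at -0.38, the SNORA74 row ENSRNOG00000051492 at 0.10, the SNORA73 row ENSRNOG00000052033 at 0.47 and SNORD39 at 0.0014. With RSEM ENSRNOG00000061536 was at -0.14, Snord17 at -0.017, Scarna2 at -0.00028, the SNORD15 row ENSRNOG00000052293 at -0.052, SNORD39 at 0.083 and Snord8 at -0.049. With lines 19-1 and 19-4 averaged the SNORA73 row ENSRNOG00000052439 was at 0.0051.

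With each line left out in turn, the SNORA73 rows ran from -0.38 to 0.034 (ENSRNOG00000061662), -0.12 to 0.28 (ENSRNOG00000061536), -0.13 to 0.11 (ENSRNOG00000052439), -0.37 to 0.22 (ENSRNOG00000052033) and -0.78 to 0.12 (ENSRNOG00000052548). The SNORA74 row ENSRNOG00000051492 ran from -0.21 to 0.016, Scarna10 from -0.078 to 0.055, Scarna2 from -0.0196 to 0.083 and Scarna3 from -0.14 to 0.27. Snord17 ran from -0.12 to 0.13, the SNORD15 rows from -0.056 to 0.376 (ENSRNOG00000055569) and -0.195 to 0.245 (ENSRNOG00000052293), SNORD39 from -0.527 to 0.032 and Snord90 from -0.71 to 0.17. The SNORD14 rows ran from -0.058 to 0.338 (ENSRNOG00000054774), -0.18 to 0.25 (ENSRNOG00000060267) and -0.024 to 0.159 (ENSRNOG00000057762). Of the protein-coding genes, Eif4g1 ran from -0.036 to 0.0103, Nhp2 from -0.152 to 0.056, Npm1 from -0.016 to 0.154, Nop56 from -0.111 to 0.0504, Polr1c from -0.105 to 0.034, Fbl from -0.062 to 0.118 and Dkc1 from -0.135 to 0.059.

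Of 29 named rows whose sign did not change, 24 moved by more than 1.5 times under some alternative, 20 of them with a line left out. The SNORA73 row ENSRNOG00000054209 ran from 0.50 to 2.81 with a line left out, the SNORA73 row ENSRNOG00000052528 from -0.41 to -0.087, the SNORD22 row ENSRNOG00000057313 from 0.25 to 1.01, the SNORD14 row ENSRNOG00000061656 from 0.022 to 0.34, Scarna3b from 0.0196 to 0.51, Naf1 from 0.056 to 0.34 and Trpv2 from -1.22 to -0.40. Likewise Shq1 ran from 0.10 to 0.32, Gar1 from 0.098 to 0.23, Rps12 from 0.0034 to 0.11, Imp3 from 0.072 to 0.20, Gnl3 from 0.015 to 0.17, Wrap53 from -0.19 to -0.091, Znhit3 from -0.195 to -0.055 and the SNORD18 row ENSRNOG00000052983 from -0.41 to -0.22. The SNORD33 row ENSRNOG00000055228 was at 0.62 with a pseudocount of 5. The SNORD34 row ENSRNOG00000060311 was at -0.26 without line 19-1, the SNORA70 row ENSRNOG00000051714 at 0.37 without line 19-4 and Scarna6 at -0.11 with RSEM.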
